A study of Mus musculus with 8 samples.

Results

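Matricellular proteins are secreted into the extracellular matrix, where they act on cells more than they hold the tissue together. The genes described here are 10 of these, namely Tnc, Postn, Spp1, Thbs1, Thbs2, Sparc, Ctgf, Cyr61, Wisp1 and Wisp2, found by symbol among 23284 genes in RNA sequencing of mouse lung. Ctgf, Cyr61, Wisp1 and Wisp2 are the older names of Ccn2, Ccn1, Ccn4 and Ccn5. The lungs came from 8 wild-type (WT) C57BL/6 recipient mice that had received a bone marrow transplant and then spent 3 days in hypoxia. In 4 mice the marrow was triply n/i/eNOS-/-, lacking the neuronal, inducible and endothelial nitric oxide synthases (called NOS-null marrow here), and in 4 it was WT (called WT marrow). Age, sex, the strain of the donors and the share of donor cells in the lung are not given in the labels used here. In both groups the resident lung cells were those of WT recipients, and no lung kept in normal air was analysed here. The comparison therefore concerns the marrow and not hypoxia itself.

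Most of these proteins are scarce in quiet adult tissue and are made during development, wound repair and vascular remodelling. Tenascin C and periostin join matrix fibres to integrins, the adhesion receptors of the cell. Osteopontin (Spp1) is an integrin and CD44 ligand made by macrophages and other cells. The thrombospondins (Thbs1, Thbs2) restrain new vessel growth, and thrombospondin 1 can release active TGF-beta from its latent complex and is stored in platelets. SPARC binds collagen, and the CCN proteins (Ctgf, Cyr61, Wisp1, Wisp2) are modular proteins that bind growth factors and integrins. In the lung such genes are known from vessel walls that thicken under hypoxia.

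The deposited values, called scaled reads here, look like read counts divided by a size factor for each library. They are given for replicates 1 to 4 in turn and as mean ± SD (n = 4 libraries per group). A log2 change is NOS-null marrow minus WT marrow of log2(scaled reads + 1), with its standard error (SE) and 95% interval from the limma fit. Each library held 7767065 to 8625142 scaled reads, which limits the precision of low genes such as Thbs2. The labels number the replicates but do not say how they relate, so the p-values cover no more than the spread among these libraries. As a check of the labels, Nos1 was at 0 in 7 of 8 libraries, Nos3 stood at 177 to 219 scaled reads with NOS-null marrow and 171 to 207 with WT marrow, and Nos2 stood at 13.3 to 43.5 scaled reads with NOS-null marrow and 87.4 to 115 with WT marrow. NOS-null replicates 1 and 2 lay apart from the other 6 libraries on the leading principal component over all tested genes (−57.7 and −32.3, against −3.35 and −1.41 for replicates 3 and 4 and 17.7 to 27.2 with WT marrow).

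With NOS-null marrow, Tnc, Wisp1 and Postn were lower and Spp1 was higher. By fitted change, Tnc was 3.59-fold, Wisp1 4.30-fold and Postn 1.47-fold lower, and Spp1 was 4.97-fold higher. Of the 10 members, all tested, 1 rose, 3 fell and 6 did not pass a Benjamini-Hochberg adjusted p of 0.05 over 14008 genes. Of all tested genes 4.05% passed in either direction, 1.87% higher and 2.18% lower. The log2 change was negative for 7 members and positive for 3, with a median of −0.51 against 0.00 over all tested genes. The 4 values of each group did not overlap in 6 members, 5 lower and 1 higher, and the same held for 17.1% of the 14008 genes (9.29% lower and 7.82% higher). These counts describe the members and are no test of them as a set, because the members were chosen with earlier results known.

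**Figure D1:**
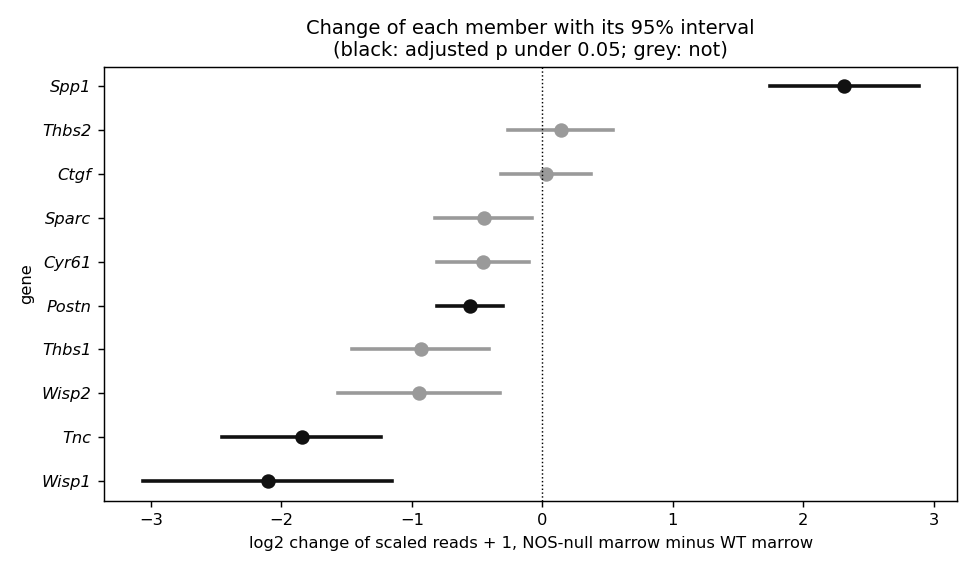
Log2 change of each member (horizontal axis, NOS-null marrow minus WT marrow, log2 of scaled reads + 1) with its 95% interval from the limma fit over 8 libraries. Genes in black passed the adjusted p of 0.05: Spp1 lies at 2.31, Postn at −0.56, Tnc at −1.84 and Wisp1 at −2.11, and the intervals of Thbs2 and Ctgf span 0.

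The sequences before the start sites of the called genes are shown for Tnc and Postn, which fell, and Spp1, which rose. They are the 250 bases ahead of the annotated start site, from RefSeq on GRCm38.p6, the assembly also called mm10. Where 2 start sites are listed (Tnc, Postn, Spp1), the one nearest the start of the GENCODE M21 gene is printed. Promoter entries were matched for 6 members, and those of Thbs1, Ctgf, Wisp1 and Wisp2 were not. Capitals mark matches, on either strand, to short motif strings.
Tnc, chr4:64047016-64047265, minus strand: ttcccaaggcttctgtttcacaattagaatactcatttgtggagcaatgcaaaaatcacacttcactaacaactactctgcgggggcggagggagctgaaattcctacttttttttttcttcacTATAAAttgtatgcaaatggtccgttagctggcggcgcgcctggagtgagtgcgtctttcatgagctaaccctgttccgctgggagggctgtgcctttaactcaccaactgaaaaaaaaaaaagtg
Postn, chr3:54360857-54361106, plus strand: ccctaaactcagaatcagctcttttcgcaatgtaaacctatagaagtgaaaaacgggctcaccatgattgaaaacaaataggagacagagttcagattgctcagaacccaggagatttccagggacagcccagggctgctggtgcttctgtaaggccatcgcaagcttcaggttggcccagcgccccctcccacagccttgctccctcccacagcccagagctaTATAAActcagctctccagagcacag
Spp1, chr5:104434861-104435110, plus strand: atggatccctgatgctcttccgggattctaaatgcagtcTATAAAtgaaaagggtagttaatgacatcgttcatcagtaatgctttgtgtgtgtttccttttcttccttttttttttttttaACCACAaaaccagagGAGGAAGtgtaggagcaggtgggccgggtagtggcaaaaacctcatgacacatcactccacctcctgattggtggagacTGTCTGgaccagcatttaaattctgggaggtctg
The strings searched on both strands were TATAAA for the promoter element of that name, GGAATG for the TEAD factors, and TGANTCA for the AP-1 factors. Further strings were ACCACA for the RUNX factors, CAGACA for the Smad proteins and GAGGAAG for the ETS factors. The CArG box of serum response factor was listed under its name only, and the letters searched for it are not given here. Each of the 3 windows held TATAAA, beginning 126 bases before the start in Tnc, 26 in Postn and 211 in Spp1, as did 12.4% of 32851 windows of the same length. The Spp1 window also held ACCACA at 128 bases (14% of windows), GAGGAAG at 113 (10.6%) and TGTCTG, the reverse complement of CAGACA, at 34 (17.1%). The window before the other listed Tnc start, 79 bases away, held TATAAA at 205, TGTCTG at 71 and GAGGAAG at 44. Those before the other starts of Postn and Spp1 held none of the strings. Of the members without a call, Thbs2 held TGTCTG at 67 and 44 and TTTATA, the reverse complement of TATAAA, at 126. Sparc held TGTCTG at 36. Cyr61 held TATAAA at 25 and CATTCC, the reverse complement of GGAATG, at 103. The 3 printed windows held no TEAD string, no AP-1 string and no CArG box, which 12.6%, 6.75% and 1.47% of windows hold. A match describes letters only and no binding was measured.

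Tnc encodes tenascin C, a large protein with many arms that is laid down in remodelling matrix (chromosome 4, 63959785 to 64047015, minus strand). It stood at 143, 182, 358 and 359 scaled reads with NOS-null marrow and at 804, 938, 779 and 959 with WT marrow. Each NOS-null marrow library was below every WT marrow library, with replicates 1 and 2 the lowest. The means were 260 ± 114 and 870 ± 91.3 (log2 change −1.84, SE 0.27, 95% interval −2.45 to −1.24, adjusted p = 0.0108). The two-sided exact permutation p was 0.0286, the smallest that 4 libraries against 4 can give. With any 1 library left out Tnc still passed in all 8 fits, with log2 changes of −2.04 to −1.59 (adjusted p up to 0.0492). Without NOS-null replicates 1 and 2 together it was −1.27.

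Postn encodes periostin, which helps collagen fibres to assemble and cross-link (chromosome 3, 54361109 to 54391037). It stood at 4746, 6155, 6811 and 5911 scaled reads with NOS-null marrow and at 9304, 9012, 8420 and 7805 with WT marrow. The groups did not overlap, and replicate 1 was the lowest of the NOS-null marrow libraries. The means were 5906 ± 862 and 8635 ± 664 (log2 change −0.56, SE 0.11, 95% interval −0.81 to −0.30, adjusted p = 0.0316). The call was lost without NOS-null replicate 2 and without WT replicates 1, 2, 3 or 4 (adjusted p = 0.085, 0.107, 0.083, 0.0803 and 0.051), and without NOS-null replicates 1 and 2 together (0.0671). The log2 change over the 8 fits was −0.63 to −0.46.

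Spp1 encodes osteopontin, a phosphorylated ligand of integrins and CD44 that also acts as a cytokine (chromosome 5, 104435118 to 104441050). It stood at 2300, 3215, 1696 and 1233 scaled reads with NOS-null marrow and at 432, 301, 470 and 413 with WT marrow. The lowest NOS-null marrow library (1233) was above the highest WT marrow library (470), and replicates 1 and 2, the lowest of NOS-null marrow for Tnc, were the highest for Spp1. The means were 2111 ± 856 and 404 ± 72.8 (log2 change 2.31, SE 0.26, 95% interval 1.74 to 2.88, adjusted p = 0.00253). Spp1 still passed with any 1 library left out (2.08 to 2.54, adjusted p up to 0.0173) and without NOS-null replicates 1 and 2 together (1.86, adjusted p = 0.00124). No bone relative of osteopontin was tested: Ibsp, Dmp1, Mepe and Dspp summed to at most 0.156 FPKM (reads scaled to transcript length and library depth) in any library.

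Neither thrombospondin gene passed. Thbs1, on chromosome 2 (118111876 to 118127133), stood at 1339, 1922, 2761 and 2656 scaled reads with NOS-null marrow and at 3188, 5442, 3344 and 4326 with WT marrow. The groups did not overlap, yet the WT marrow libraries themselves ranged over 1.71-fold. The means were 2169 ± 668 and 4075 ± 1041 (log2 change −0.93, SE 0.24, 95% interval −1.46 to −0.41, adjusted p = 0.0539), just outside the threshold. It passed without NOS-null replicate 3 (−1.07, adjusted p = 0.0413) and without replicate 4 (−1.05, adjusted p = 0.0429). Thbs2, on chromosome 17, was the lowest member, at 47.2, 37.5, 54.2 and 62.0 scaled reads with NOS-null marrow and 47.7, 48.7, 43.4 and 39.7 with WT marrow. Its groups overlapped (log2 change 0.14, SE 0.18, 95% interval −0.26 to 0.54, adjusted p = 0.646). The log2 change of Thbs2 ran from 0.03 without NOS-null replicate 4 to 0.27 without NOS-null replicate 2, and was 0.37 without NOS-null replicates 1 and 2 together.

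Sparc, also called osteonectin (chromosome 11, 55394500 to 55423183), was the most abundant member. It stood at 20296, 34014, 33952 and 28533 scaled reads with NOS-null marrow and at 38569, 43076, 34750 and 40301 with WT marrow. The groups were separated by a narrow gap, between 34014 and 34750, and NOS-null replicate 1 lay well below the rest. The log2 change was −0.45 (SE 0.17, 95% interval −0.82 to −0.08, adjusted p = 0.129) and without NOS-null replicate 1 it was −0.28. Sparc therefore did not pass.

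**Figure D2:**
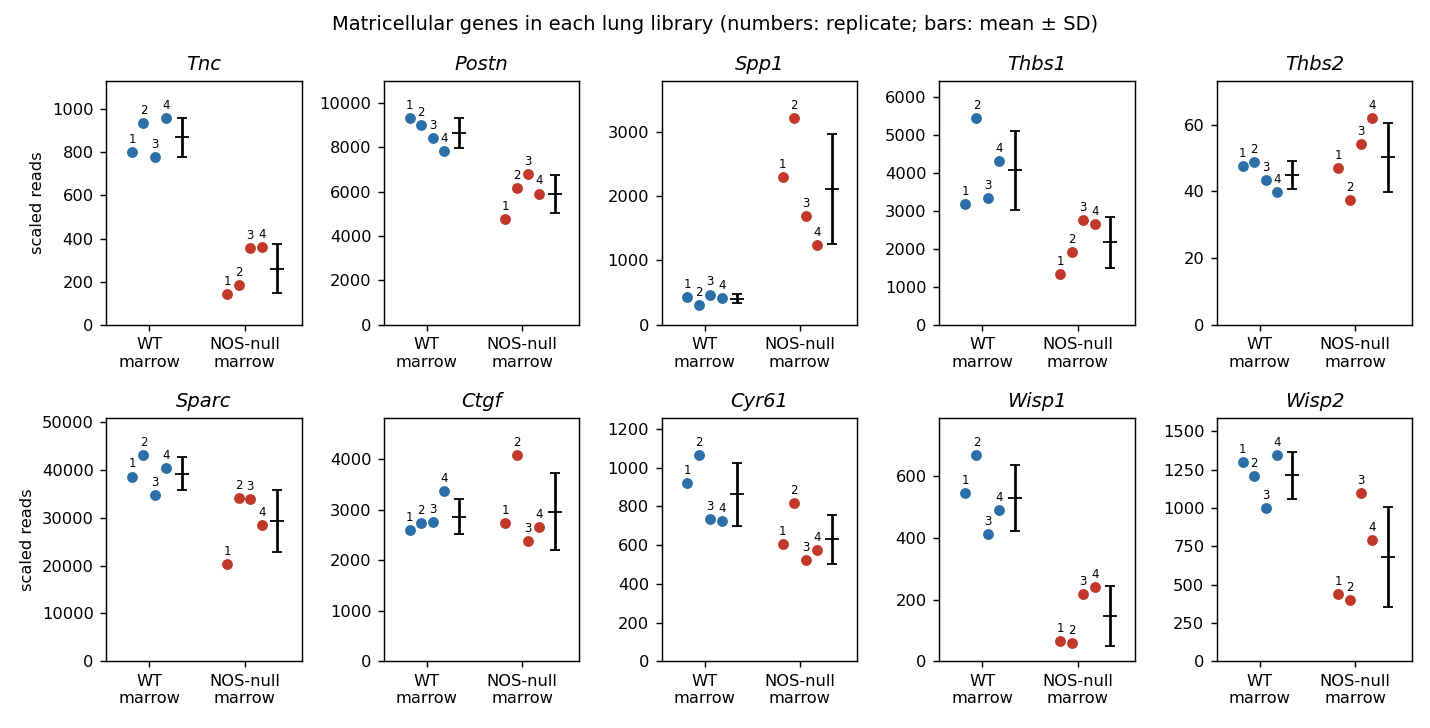
Scaled reads (vertical axes, each from 0) of the 10 members in the 4 WT marrow and 4 NOS-null marrow libraries; points carry the replicate number and bars give mean ± SD. Tnc, Postn, Thbs1, Sparc and Wisp1 are lower in every NOS-null marrow library than in any WT marrow library, and Spp1 is higher.

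Of the 4 CCN genes, Wisp1 passed. Wisp1 (Ccn4), a growth and survival signal first named as a Wnt-induced gene (chromosome 15, 66891320 to 66923201), stood at 65.6, 60.4, 218 and 243 scaled reads with NOS-null marrow. With WT marrow it stood at 545, 670, 413 and 492, so that the groups were far apart, and NOS-null replicates 1 and 2 were the lowest. The means were 147 ± 97.1 and 530 ± 108 (log2 change −2.11, SE 0.43, 95% interval −3.06 to −1.15, adjusted p = 0.0316). The call was lost without NOS-null replicate 2 and without WT replicates 1, 2, 3 or 4 (adjusted p = 0.0877, 0.106, 0.0831, 0.0694 and 0.063), while without NOS-null replicates 1 and 2 together it was kept at a smaller log2 change of −1.18 (adjusted p = 0.00569).

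Wisp2 (Ccn5), a CCN protein that lacks the C-terminal module of its relatives (chromosome 2, 163820861 to 163833146), stood at 440, 402, 1097 and 792 scaled reads with NOS-null marrow and at 1298, 1206, 1002 and 1347 with WT marrow. Replicates 1 and 2 lay far below WT marrow, while replicate 3 lay within its range. Its log2 change was −0.94 (SE 0.28, 95% interval −1.57 to −0.32, adjusted p = 0.0749). It passed without NOS-null replicate 3 (−1.21, adjusted p = 0.021). Without replicates 1 and 2 together its log2 change was −0.37.

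Ctgf (Ccn2) and Cyr61 (Ccn1) are early targets of TGF-beta and of YAP and TAZ, the co-activators of the Hippo pathway. Ctgf (chromosome 10, 24595442 to 24598683) stood at 2733, 4087, 2385 and 2656 scaled reads with NOS-null marrow and at 2602, 2741, 2751 and 3364 with WT marrow. The groups overlapped almost completely (log2 change 0.03, 95% interval −0.32 to 0.37, adjusted p = 0.933), and the sign turned with scaling by library total (−0.0022) or by upper quartile (−0.02), without NOS-null replicate 2 (−0.14) and without WT replicate 1 (−0.02). Cyr61 (chromosome 3, 145646976 to 145649981) stood at 606, 815, 525 and 573 against 921, 1066, 734 and 726. Here NOS-null replicate 2 lay within the WT marrow range and the other 3 below it (log2 change −0.45, SE 0.16, 95% interval −0.81 to −0.10, adjusted p = 0.111). In both genes replicates 1 and 2 were the highest of NOS-null marrow, as in Spp1 and opposite to Tnc, Thbs1, Thbs2, Wisp1 and Wisp2. In all 10 members the coefficient of variation was larger with NOS-null marrow, from 14.6% for Postn to 66.2% for Wisp1, than with WT marrow, where it ran from 7.69% for Postn to 25.6% for Thbs1.

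Levels of different genes were compared per length, in FPKM. With WT marrow Sparc was highest, at 2233 ± 199 FPKM, followed by Postn at 352 ± 27.1, Ctgf at 156 ± 18.5, Wisp2 at 92.3 ± 11.6, Thbs1 at 86.8 ± 22.2 and Cyr61 at 56.4 ± 10.7. Lower down came Spp1 at 39.6 ± 7.13, Tnc at 15.04 ± 1.58, Wisp1 at 13.1 ± 2.67 and Thbs2 at 0.936 ± 0.0866. In this order the ranges of Wisp2 and Thbs1, of Thbs1 and Cyr61, and of Tnc and Wisp1 overlapped, and the other neighbours did not. With NOS-null marrow Spp1 stood at 207 ± 84.0 FPKM, rank 3 in place of rank 7, where its range overlapped those of both Postn and Ctgf. Tnc and Wisp1 stayed at ranks 8 and 9, at 4.5 ± 1.98 and 3.63 ± 2.40 FPKM.

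**Figure D3:**
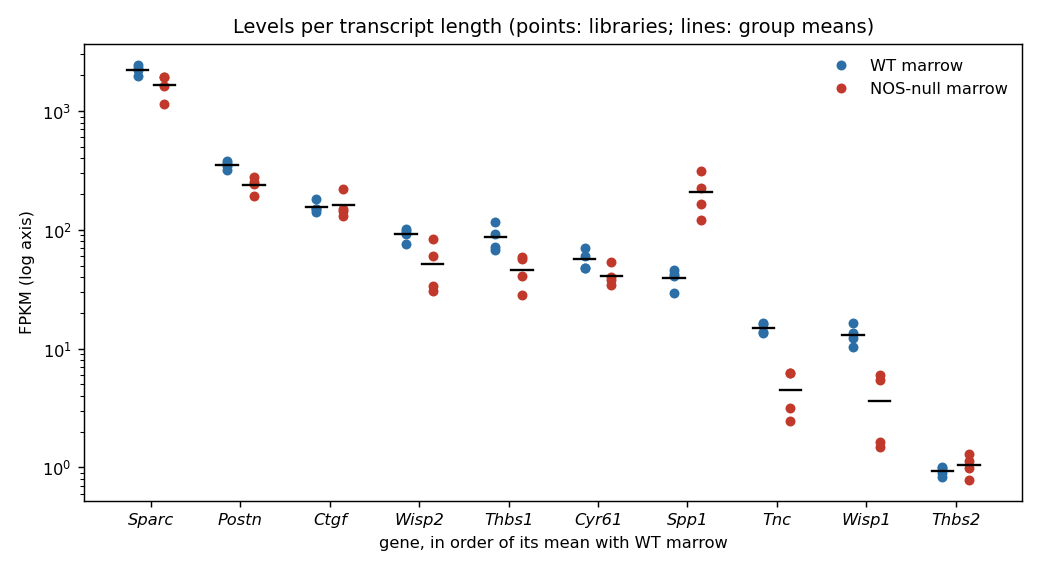
FPKM (log axis) of each member in WT marrow (blue) and NOS-null marrow (red) libraries, ordered by the WT marrow mean; points are libraries and lines are group means. Sparc lies at the top in both groups, Thbs2 near 1 FPKM at the bottom, and Spp1 is the member whose rank differs most, 7 against 3.

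Ratios taken within a library do not depend on its scaling. The ratio of Spp1 to Tnc in FPKM was 91.4, 100.1, 26.9 and 19.5 with NOS-null marrow and 1.82 to 3.42 with WT marrow. The ratio of Wisp2 to Wisp1 was 10.03 to 20.6 against 5.53 to 8.42, with no overlap between the groups. Thbs1 was 29 to 52.4 times Thbs2 with NOS-null marrow and 68.3 to 114 times with WT marrow. The ratio of Ctgf to Cyr61 overlapped between groups (3.74 to 4.16 against 2.13 to 3.84). Sparc made up 63.2 to 71.7% of the summed FPKM of the 10 members with NOS-null marrow and 72.3 to 74.1% with WT marrow.

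Of 20 tested relatives outside the 10 members 1 passed, or 5%, beside 4.05% of all tested genes. Of the other tenascins and thrombospondins (Tnxb, Tnr, Tnn, Thbs3, Thbs4, Comp) 3 of 6 were tested, and none passed limma's adjusted p or an unadjusted p of 0.05. Counts at an unadjusted p, here and below, lack the share over all tested genes, so they do not show an excess. Sparc, for example, had an unadjusted limma p of 0.0226 and an adjusted p of 0.129. Tnxb stood at 208 ± 22.4 scaled reads against 183 ± 44.1, and Thbs3 at 449 ± 138 against 534 ± 40.6. Of 5 tested relatives of SPARC none passed (2 at an unadjusted p under 0.05), among them Sparcl1, an anti-adhesive relative, at 13358 ± 1395 against 14593 ± 1484, and Fstl1 at 3886 ± 643 against 5298 ± 500 (adjusted p = 0.0647). The CCN gene Nov (Ccn3) stood at 459 ± 117 against 322 ± 59.2 (log2 change 0.49, adjusted p = 0.122), and Wisp3 was below the limit for testing. Of 11 other matricellular genes, Ecm1, an extracellular matrix glycoprotein gene, rose from 799 ± 171 to 1231 ± 81.2 (0.64, adjusted p = 0.0316) and 10 did not pass. The Ecm1 call was lost without NOS-null replicate 2 or WT replicates 1, 2 or 3 (adjusted p up to 0.106).

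Of 21 tested receptors of matricellular proteins, 1 was higher, 2 were lower and the other 18 missed the threshold, with a median log2 change of 0.01 against 0.00 over all tested genes. Lrp1, a scavenger receptor that takes up thrombospondins and CCN proteins, rose from 1201 ± 178 to 1708 ± 79.2 scaled reads (0.52, adjusted p = 0.0268). Cd36, a thrombospondin 1 receptor of endothelium and macrophages, fell from 14818 ± 1590 to 10842 ± 742 (−0.45, adjusted p = 0.0421). Calr, calreticulin, which serves with Lrp1 as a thrombospondin 1 receptor at the cell surface, fell from 5749 ± 254 to 4359 ± 257 (−0.40, adjusted p = 0.0245). None of the integrin genes of the list or Cd44, the osteopontin receptor, passed limma's adjusted p. Itgb6 came nearest (−0.52, adjusted p = 0.0578). Of the 21 receptors 8 had an unadjusted p under 0.05 in limma, and 11 of the 21 changes were positive. The list summed to 1586 to 1666 FPKM with NOS-null marrow against 1743 to 1999 with WT marrow. Its largest parts were Cd36, Itgb1 and Calr (means of 475, 370 and 347 FPKM over all libraries). The Lrp1, Calr and Cd36 calls were each lost without NOS-null replicate 2 and without WT replicates 1, 2 or 3. Calr was also lost without WT replicate 4 and Cd36 without NOS-null replicates 1 or 3 (adjusted p up to 0.127).

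Upstream signals and target genes were examined as further lists. Of 18 TGF-beta ligands, latency proteins, receptors and Smads, Tgfb2 fell from 638 ± 57.5 to 440 ± 74.4 scaled reads (−0.55, adjusted p = 0.0407), and the co-receptor gene Tgfbr3 rose from 523 ± 56.0 to 1042 ± 309 (0.95, adjusted p = 0.0309). The other 16 did not pass. Both calls were lost without NOS-null replicate 2 or any 1 WT replicate, and Tgfb2 also without NOS-null replicate 1 (adjusted p up to 0.119). Of 13 tested TGF-beta target genes none passed, 7 had an unadjusted p under 0.05 and the median log2 change was −0.35, with 6 of the 13 positive. The median was −0.17 without NOS-null replicate 2 and −0.15 with no filter on low values. Without NOS-null replicate 1 Tgfbi rose, without replicate 3 Cthrc1 fell and without replicate 4 Timp1 fell. Tgfbi, a secreted relative of periostin named here after its values were seen, stood at 1797 ± 1193 against 833 ± 83.8 scaled reads (0.92, adjusted p = 0.107). Its NOS-null marrow libraries ran from 1033 to 3576. The groups did not overlap, as in 17.1% of all tested genes. Col3a1, a fibrillar collagen gene, stood at 8186 ± 3975 against 12446 ± 1273, and Col1a2 at 3565 ± 880 against 4770 ± 465.

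Of 18 tested genes of YAP, TAZ, TEAD and their targets 1 fell and 17 did not pass, with a median of 0.08. That gene was Ankrd1, a muscle ankyrin repeat protein gene and a target of YAP, at 203 ± 24.2 scaled reads against 388 ± 34.5 (−0.93, SE 0.11, adjusted p = 0.00422). With any 1 library left out Ankrd1 still passed in all 8 fits (adjusted p up to 0.0246). Ctgf and Cyr61, targets of the same pathway, did not pass. Of 11 tested enzymes that cut or modify matricellular proteins, Adamts1, a protease that can cut thrombospondins, fell from 2449 ± 293 to 1448 ± 223 (−0.76, adjusted p = 0.0146), and 10 did not pass. The Adamts1 call was lost without WT replicates 2 or 3 (adjusted p up to 0.052).

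**Figure D4:**
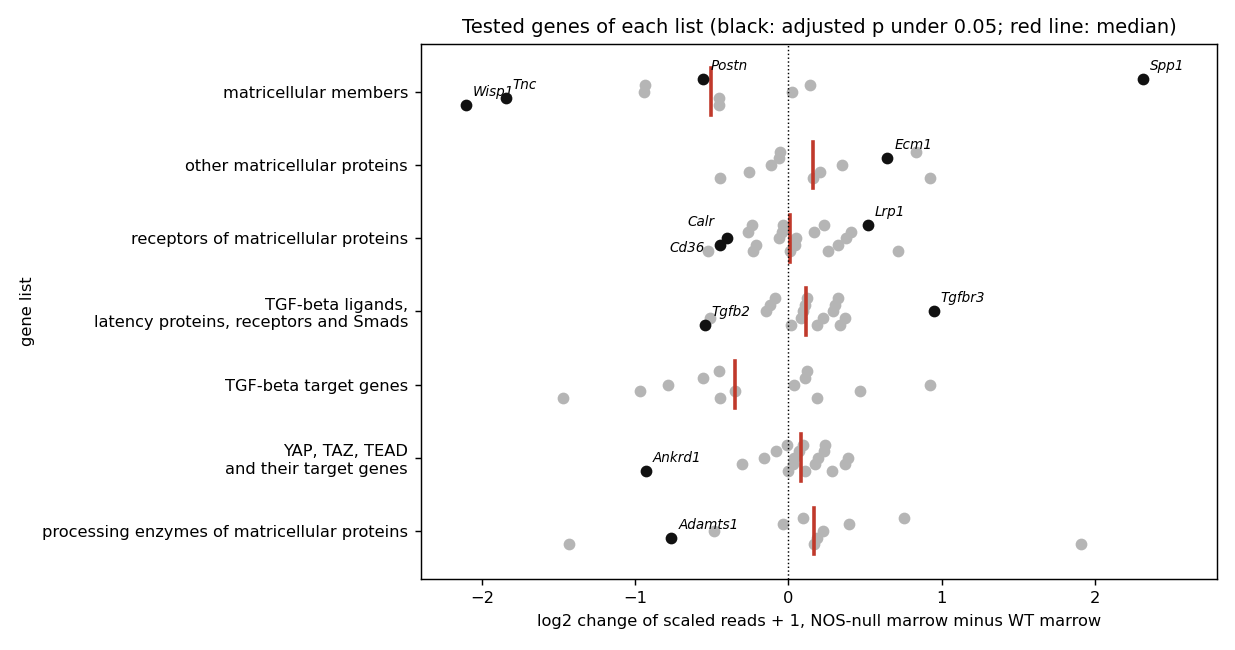
Log2 change (horizontal axis, NOS-null marrow minus WT marrow, log2 of scaled reads + 1) of each tested gene of the members and 6 related lists; black points passed the adjusted p of 0.05 and red lines are medians. The members have the lowest median, −0.51, and Spp1 at 2.31 and Wisp1 at −2.11 lie farther out than any gene of the related lists.

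Lung RNA adds up many cell types, and fewer cells of a type cannot be told apart from less RNA per cell. Smooth muscle cells and myofibroblasts are known sources of tenascin C, periostin and CCN proteins. Of their 12 tested markers 4 fell, Acta2 (−1.02, adjusted p = 0.00248), Tagln (−0.93, adjusted p = 0.00205), Des (−0.52, adjusted p = 0.0181) and Cnn1 (−0.49, adjusted p = 0.0317), none rose and 8 did not pass, with 5 of the 12 positive (Myocd 0.62, Lgr6 0.57, Lmod1 0.34, Hhip 0.34 and Pdgfrb 0.20) and Myh11, the smooth muscle myosin gene, at −0.17. The summed level, most of it from Acta2 and Tagln (783 and 634 FPKM over all libraries), was 1209 to 1525 FPKM with NOS-null marrow against 2212 to 2486 with WT marrow. The Des and Cnn1 calls were lost without NOS-null replicate 2 or WT replicates 1 or 2, and Cnn1 also without WT replicates 3 or 4 (adjusted p up to 0.106), while Hhip rose without NOS-null replicate 1. Fibroblast markers, 12 tested, had no call (4 at an unadjusted p under 0.05 in limma) and summed to 1078 to 1380 against 1055 to 1207 FPKM. No marker of these 2 lists was at 0 in any library, and their part in the Tnc, Wisp1 and Postn results was not tested.

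Macrophages are a known source of osteopontin. Of 15 tested macrophage markers 1 rose, the phagocytic receptor gene Mertk (0.94, adjusted p = 0.0332), and 1 fell, Siglec5, the table's name for Siglecf (−1.52, adjusted p = 0.00248). Their summed level was 5956 to 8071 FPKM with NOS-null marrow against 4958 to 6494 with WT marrow. Most of that sum came from Lyz2 (mean 4828 FPKM over all libraries). The log2 change was positive for 13 of the 15 markers. Marco, a scavenger receptor gene, was negative, at 9.24 ± 6.85 scaled reads with NOS-null marrow against 46.8 ± 2.59 (−2.81, adjusted p = 0.0585). Its lowest value with NOS-null marrow was 0. Of 14 markers of lipid-associated macrophages, Gpnmb (1.48, adjusted p = 0.0407) and Cd5l (1.79, adjusted p = 0.0316, at 15.3 against 3.90 scaled reads) rose and Fabp5 fell (−0.41, adjusted p = 0.0495). In these 14 the change was positive for 11, with a median of 0.49, and 11 had an unadjusted p under 0.05 in limma. The share of all tested genes under that unadjusted p is not given here. Gpnmb, Cd5l, Mertk and Fabp5 each lost the call without NOS-null replicate 2 or any 1 WT replicate, and Gpnmb, Cd5l and Fabp5 also without NOS-null replicate 1, Fabp5 further without replicate 3 (adjusted p up to 0.145). This second list summed to 2856, 3164, 2299 and 2247 FPKM in the NOS-null marrow libraries in turn and to 2149 to 2404 in the WT marrow libraries. In scaled reads, 4 of the 14 markers, Gpnmb, Lpl, Ctsd and Cd5l, were higher in every NOS-null marrow library than in any WT marrow library, and 2, Cd63 and Fabp5, were lower in every one. Of all tested genes 7.82% were higher and 9.29% lower in this way. The calls in this list ranged from 0 to 4 higher and 0 to 1 lower with 1 library left out. The part of macrophages in the Spp1 result was not tested.

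Platelets are known to carry thrombospondin 1 and SPARC. Of 11 tested platelet and megakaryocyte markers none passed limma's adjusted p (5 at an unadjusted p under 0.05). They summed to 264, 117, 80.7 and 119 FPKM in the NOS-null marrow libraries in turn. In the WT marrow libraries the sums ran from 145 to 203. NOS-null replicate 1 was thus above every WT marrow library, and the other NOS-null marrow libraries were below every one. Without NOS-null replicate 1 alone 5 of the 11 fell and their median log2 change went from −0.68 to −1.05, and without NOS-null replicates 1 and 2 together 2 fell, with a median of −1.18. Of 7 tested neutrophil markers none passed (6 at an unadjusted p under 0.05), but 1, Csf3r, rose with the filter of 50, with scaling by library total or upper quartile and without NOS-null replicate 1, and 2, Csf3r and Cxcr2, rose without NOS-null replicate 3. Their median log2 change was 2.46. They summed to 42030, 3819, 1684 and 2170 FPKM against 584 to 1597. No platelet or neutrophil marker was at 0 in all 8 libraries, and the untested neutrophil marker Camp had a lowest value of 0 with WT marrow. Of 8 bone markers, Bglap and Bglap2 were at 0 in every library. Alpl (mean 88.8 scaled reads in NOS-null libraries, 129 in WT libraries) and Phex (89.7 and 82.0) were tested and did not pass. The bone list summed to 3.67 to 8.73 FPKM in NOS-null libraries and 7.59 to 9.65 in WT libraries. The part of these cells in the results for Spp1, Thbs1 and Sparc was not tested.

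**Figure D5:**
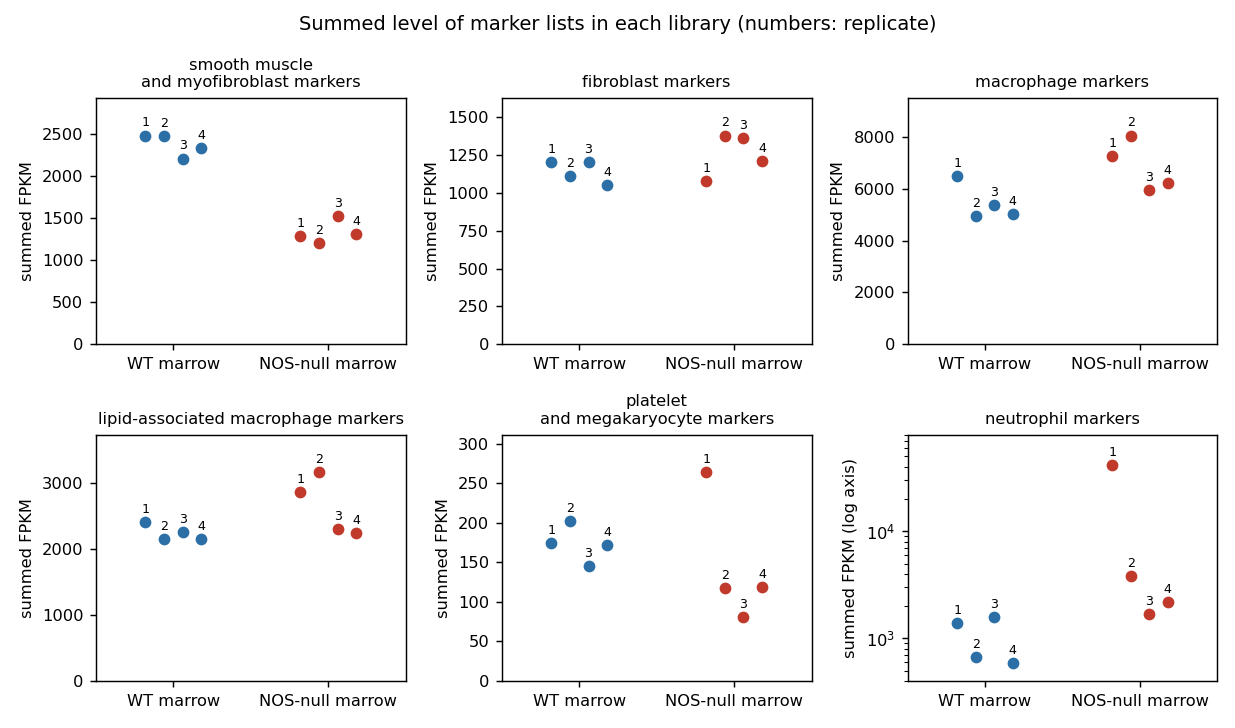
Summed FPKM of 6 marker lists (vertical axes from 0, a log axis for neutrophils) in each library, with replicate numbers. The smooth muscle sum, most of it from Acta2 and Tagln, is lower in all 4 NOS-null marrow libraries (1209 to 1525 against 2212 to 2486) although 8 of its 12 markers did not pass, fibroblast markers overlap, and neutrophil markers reach 42030 in NOS-null replicate 1.

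The genes whose profiles over the 8 libraries were most like those of Spp1, Tnc and Wisp1 were sought among 9722 others with a mean of at least 100 scaled reads. The likeness includes the difference between groups, since Pearson's r was taken over all 8 libraries of both, and it is given as a description. For Spp1 they were the cell cycle inhibitor gene Cdkn1a (r = 0.995), Zcchc24 (0.984) and the flavin monooxygenase gene Fmo2 (0.983). For Tnc they were the secretory pathway GTPase gene Arf4 (0.991), Wfdc1 (0.990) and the nuclear pore gene Nup85 (0.987). For Wisp1 they were Agpat6 (0.994), Nat10 (0.994) and the sterol synthesis gene Sqle (0.991). The log2 changes of these 3 were small beside that of Wisp1, −0.18, −0.24 and −0.46, and none of them passed limma's adjusted p.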

How the data were processed

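Per the labels' protocols, mRNA was taken with magnetic beads, sheared as cDNA and sequenced as 75-base single reads (strand not stated). Per the submitters' processing notes, the tools were CASAVA 1.8.2, TopHat2 2.0.13, Bowtie2 2.2.3, SAMtools 0.1.19 and Cufflinks 2.2.1 with build mm10, while the sources used here do not state the annotation. The deposited gene table has signal values that, judged from the values alone, are read counts divided by a size factor of each library. The deposited FPKM table of the authors served for levels between genes and as an alternative. Of positive values 98.8 to 98.9% lay within 0.05 of a whole multiple of 1 read, but 8 to 15 per library lay below it, so no count model was used.

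Groups came from the sample titles, because the design text gives both groups the same marrow. The 14008 genes with at least 10 scaled reads in 4 or more libraries went into limma 3.58.1 (trend on, R 4.3.3) on log2(scaled reads + 1), adjusted over all of them. The procedure was tested on simulated data in which each gene had the same dispersion (relative spread) in both groups. The members had a larger coefficient of variation with NOS-null marrow, a setting that the simulation did not cover. Members, lists and rules for named genes (those of a list past the threshold, up to 4, otherwise the 2 of highest level) were chosen with earlier results of these data known. Erythroid, endothelial, epithelial, mesothelial, cartilage and cardiomyocyte lists were also measured. Of 6 tested erythroid markers 4 rose and 0 fell, beside 4.05% of all tested genes passing. The erythroid list summed to 3064 to 5481 FPKM with NOS-null marrow and 2194 to 2667 with WT marrow. With 1 library left out 1 to 4 erythroid markers rose and 0 to 1 fell. Of 10 endothelial markers 1 rose and 2 fell, of 5 mesothelial 1 rose and of 3 cartilage 1 fell. Of 10 epithelial and 8 cardiomyocyte markers 0 passed. Tnc, Thbs1 and Ctgf overlap exons of unlisted antisense genes, and Spp1 a same-strand one, whose reads cannot be told apart.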

Additional observations from a re-analysis of the deposited data

How the results depend on the processing

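Spp1 and Tnc kept direction and call under all 20 alternatives, and Cyr61, Sparc and Thbs2 stayed uncalled with the same sign (Thbs2 could not be tested with the filter of 50). Genes called in all numbered 567, and 4 members (4.05% of genes). With the replicate block the counts were 135 and 2 (0.964%), with Postn at −0.56 (adjusted p = 0.063) and Wisp1 at −2.11 (0.0617). The labels state no pairing, so the numbers were not taken as pairs. Deviations of same-numbered libraries correlated at r = 0.04, 0.17, −0.0027 and 0.15, and those of differently numbered ones at −0.18 to 0.11. The r of 0.17 and 0.15 were thus the highest, and these values do not settle whether the libraries are paired. Without the variance trend the counts were 185 and 2 (1.32%), with Postn at −0.56 (0.0631) and Wisp1 at −2.11 (0.0634). With robust variance Wisp1 missed the threshold (−2.11, 0.0646). Without NOS-null replicates 1 and 2 together the counts were 181 and 3 (1.29%), with Postn at −0.44 and Ctgf at −0.18.

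Fits that left out 1 library called 71 to 798 genes (0.507 to 5.7%) and 2 to 6 members. Their log2 changes ran from −0.63 to −0.46 for Postn, −2.44 to −1.78 for Wisp1, −1.07 to −0.72 for Thbs1, −1.21 to −0.73 for Wisp2 and −0.14 to 0.12 for Ctgf. Ctgf also turned sign with scaling by library total (−0.0022) and by upper quartile (−0.0218). The cause of these changes was not tested.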
